A study of Mus musculus with 4 samples.

Results

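The genes described here belong to 11 families of transcription factors that pattern the embryo: Hox, Fox, Sox, Gata, Pax, Tbx, Lhx, Pou, Nkx, Klf and the family of Six4. They were taken by symbol from the probes that the platform annotation assigns to 1 gene, and probes of a gene were averaged. The rule found 48 genes on 55 probes, of 6025 genes on the array. Hoxa10, Hoxa11, Foxa2, Gata6 and Sox17 also carry these letters and were left out, and no single-gene probe represented a Pax gene. Gatad1, a protein with a GATA-type zinc finger that is not one of the GATA factors, matched by its letters alone and is kept apart, which leaves 47 genes in 10 families.

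RNA came from mouse embryonic stem (ES) cells, the pluripotent cells of the early embryo, cultured without feeder cells. Per the series title the cells were starved of serum for 72 h and then given serum for 4 h, the wild-type cells included. One mutant, fosBd/d, is homozygous for alleles from which only the truncated protein ΔFosB is made, and the other is fosB-null. FosB is a subunit of the dimeric transcription factor AP-1, which serum induces. Each of 4 cDNA arrays carried 1 mutant in one dye and wild type in the other, with 2 arrays a mutant in exchanged dyes. In replicate 1 of each mutant the mutant was labelled with Cy3, and in replicate 2 with Cy5. The labels name 1 mutant cell line for fosBd/d and give no number of clones or cultures, so the 2 arrays of a mutant may be technical repeats and the SD then measures only the spread between arrays.

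Hox proteins bind DNA through a homeodomain and set position along the body axis from genes that lie in clusters. Lhx, Pou and Nkx factors and Six4 are homeodomain proteins as well, while Fox factors use a forkhead domain, Sox factors an HMG box, Tbx factors a T-box, and Gata and Klf factors zinc fingers. In ES cells most lineage regulators of this kind are kept at low levels by Polycomb complexes, whereas a few, Klf2 and Klf5 among them, belong to the network that maintains the pluripotent state. A ratio holds no level, so these data do not show which of the genes the cells expressed. Of 10 members listed for a role in ES cells, 2 (Klf2 and Klf5) had a single-gene probe. Sox2 shared its probe with another gene and is not reported.

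The deposited values are taken as log10 ratios and given here as log2 ratios, so every fold change rests on that base. The direction of the ratios is not settled. Over all probes, replicate 1 of fosBd/d and replicate 1 of fosB-null correlated at r = -0.463 as deposited, and replicate 2 of each at r = -0.369, although the mutant carried the same dye. Only on replicate 1 of fosBd/d and replicate 2 of fosB-null do exact zeros carry a minus sign, the mark that multiplication by -1 leaves. A positive fosBd/d value is called likely higher in the mutant, which is how the dye names read. The labels also attach the word red to Cy3 and green to Cy5. By those colours a positive fosBd/d value would be higher in wild type, Klf6, Tbx15 and Sox9 included. Sox6, whose fosBd/d value is negative, would by the colours be higher in the mutant. Read by the same dye names and zero marks, a positive fosB-null value would be higher in wild type, the reverse of fosBd/d, and by the colours higher in the mutant. A fosB-null value is therefore given by its sign as deposited. A computed difference between the mutants is also given with the fosB-null sign turned. Where values of the mutants merely stand side by side, opposite signs do not show opposite changes. Values in text are means ± SD over n = 2 arrays, and the small number of arrays limits the precision. Probe signals were not analysed here, and ratios of exactly 0 made up 4.46% to 10.1% of the probes on an array.

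The 47 genes spread around 0 much as the array as a whole did. In fosBd/d the median of their mean log2 ratios was -0.04, with a range from -1.41 to 0.87, beside -0.02 over all 6025 genes. In fosB-null it was 0.01, with a range from -0.54 to 0.76, beside 0.00 over all genes. Means lay within 0.5 of 0 for 37 of the 47 in fosBd/d and for 43 in fosB-null, shares of 78.7% and 91.5%, beside 78.4% and 93.5% of all genes. In 24 of the 47 the fosBd/d arrays had opposite signs, so that the half-gap between them exceeded the mean. Not all of these means were small, since Hoxa7 at 0.87 was among them.

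In fosBd/d, 3 members lay at least 0.5 (log2) from 0 on the same side of both arrays, Sox6 on the negative side and Klf6 and Tbx15 on the positive side. Sox6, a Sox factor of cartilage, muscle and red cell development, had log2 ratios of -1.76 and -1.05 on replicates 1 and 2, a mean of -1.41 ± 0.50 that is 2.65-fold likely lower in the mutant. Klf6, a zinc-finger factor known as an early response gene of growth factor signalling, had 0.80 and 0.77 (0.79 ± 0.02, 1.73-fold), and Tbx15, a T-box factor of skeleton and muscle, had 0.74 and 0.67 (0.70 ± 0.05, 1.63-fold). In these 3 genes the distance from 0 was wider than the gap between the arrays. The Klf6 value is an average of 2 probes, whose own SDs were 0.26 and 0.21. On the fosB-null arrays Sox6 stood at -0.37 and -0.37, Klf6 at -0.08 and 0.16, and Tbx15 at -0.35 and -0.14.

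**Figure D1:**
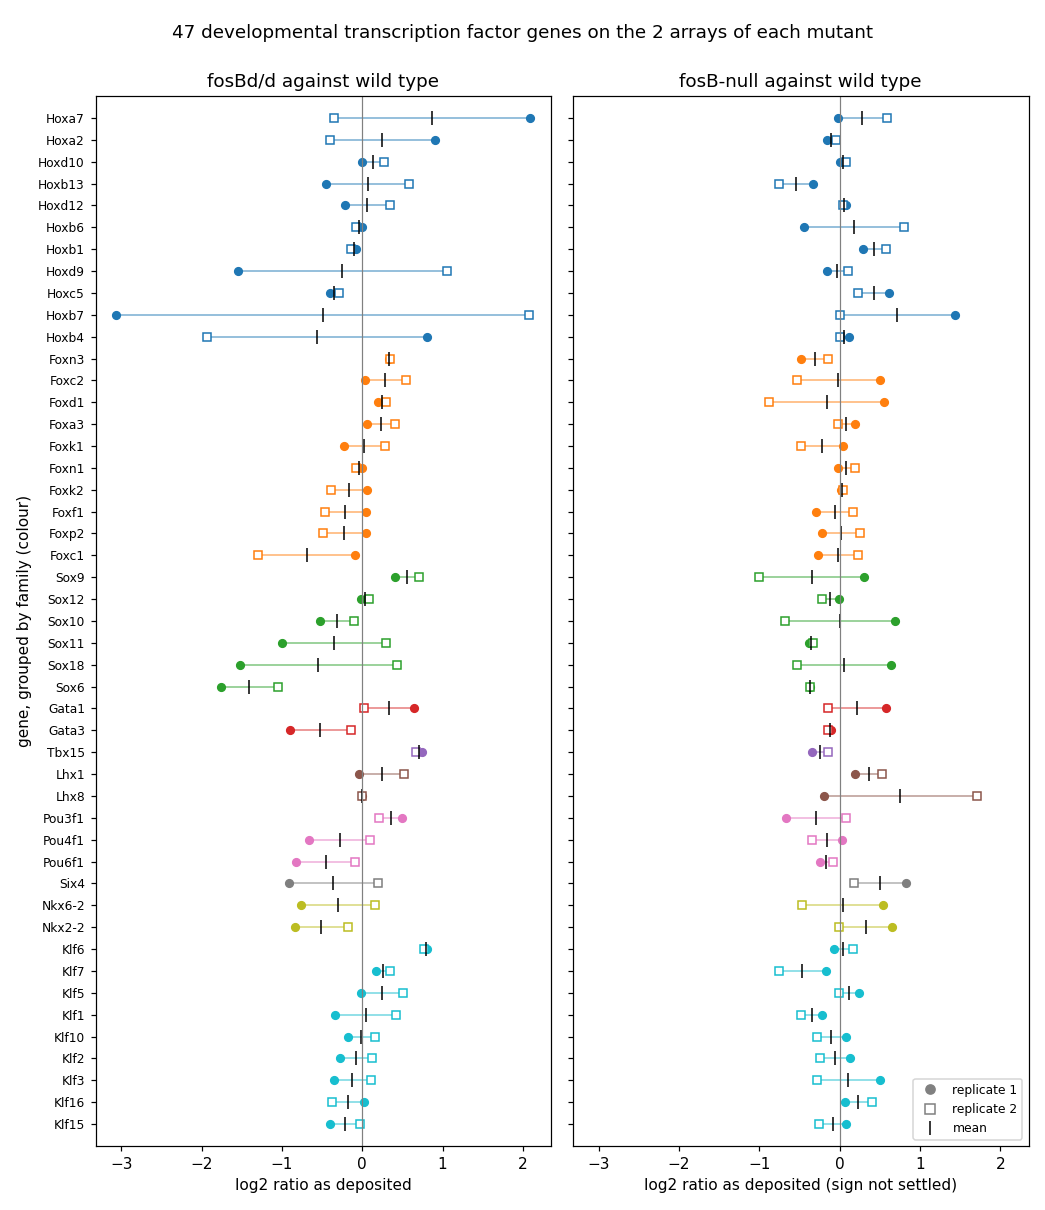
Log2 ratio as deposited of the 47 genes, mutant and wild type on the same array, with filled circles for replicate 1, open squares for replicate 2 and a black tick for their mean; genes are grouped and coloured by family, and the sign of fosB-null is not settled. Sox6 lies farthest left by its fosBd/d mean (-1.41), while Hoxb7 spans from -3.06 to 2.08 on the 2 fosBd/d arrays.

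No member passed the test in limma, a linear model fitted to all 6025 genes that estimates each mutant's ratio and the effect of the dye. In fosBd/d 0 of 47 members had an adjusted p under 0.05, as did 0.00% of all genes, and 5 members had an unadjusted p under 0.05 (10.6%, beside 19.5% of all genes). Those 5 were Sox6, Klf6, Tbx15, Nkx2-2 and Foxc1, and the smallest adjusted p among members was 0.199, for Sox6. In fosB-null 0 of 47 passed, beside 0.00% of all genes, and 4 had an unadjusted p under 0.05 (Hoxb1, Hoxc5, Klf7 and Six4; 8.51% beside 6.82% of all genes). The model leaves 1 residual degree of freedom.

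By size, 1 member, Sox6, was at least 2-fold negative on both fosBd/d arrays, beside 0.266% of all genes, and 0 members were at least 2-fold positive on both, beside 1.53%. In fosB-null 0 members were 2-fold on both arrays in either direction, beside 0.166% of all genes on the positive and 0.0830% on the negative side. Single arrays held more: 5 members on either fosBd/d array, 1 on replicate 1 of fosB-null and 2 on its replicate 2. These are 10.6% on either fosBd/d array, beside 12.3% and 9.10% of all genes on replicates 1 and 2, and 2.13% and 4.26% in fosB-null, beside 1.94% and 4.15%. At a lower bar of 0.5 (log2) on both arrays, fosBd/d held 2 positive members, Klf6 and Tbx15 (4.26%, beside 4.75% of all genes), and 1 negative, Sox6 (2.13%, beside 1.88%). No member reached that bar in fosB-null, beside 0.863% of all genes on the positive and 0.880% on the negative side. Of the 5 on fosBd/d replicate 1, Hoxb7 and Hoxd9 lay past 2-fold with the opposite sign on replicate 2.

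The dye-swapped arrays had the same sign in 40.4% of the members in fosBd/d and in 38.3% in fosB-null, beside 49.2% and 41.4% of all genes. In fosBd/d 10 members were positive on both arrays (21.3%, beside 25.0% of all genes) and 9 were negative on both (19.1%, beside 24.2%). In fosB-null 7 were positive on both (14.9%, beside 19.5%) and 11 negative on both (23.4%, beside 21.9%). The remaining 28 members in fosBd/d and 29 in fosB-null had opposite signs or a value of 0 on 1 or both arrays.

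Across the 47 genes, replicates 1 and 2 correlated at r = -0.34 in fosBd/d and at r = -0.18 in fosB-null, beside 0.05 and -0.15 over all genes. These are descriptions across genes that share arrays and dyes. The dye term of the model, which takes up a ratio that follows the dye and not the mutant, had a median size of 0.25 over the members, beside 0.19 over all genes. In 17 of the 47 members the dye term was larger than the mean ratio of either mutant (36.2%, beside 30.5% of all genes). With exact 0 left out of the count, the fosBd/d arrays had opposite signs in 24 members (51.1%, beside 43.5% of all genes). In fosB-null this held for 26 (55.3%, beside 56.1%). These counts restate the sign agreement given above and are no separate result.

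**Figure D2:**
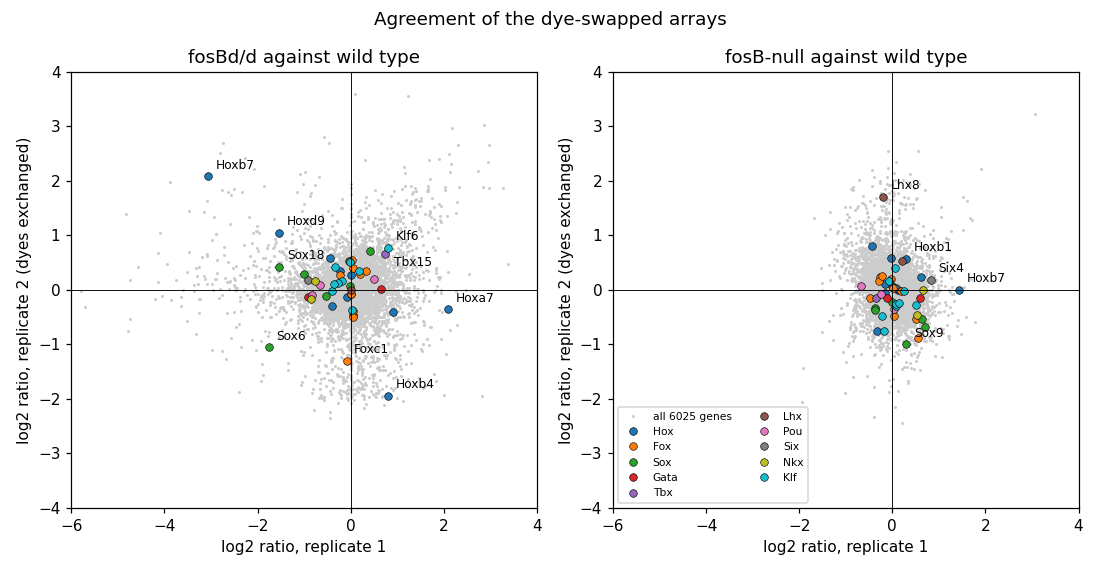
Log2 ratio on replicate 1 against replicate 2 (dyes exchanged) for each mutant, with all 6025 genes in grey and the members coloured by family. Genes that agree lie in the lower left or upper right field, such as Sox6, Klf6 and Tbx15 in fosBd/d, whereas Hoxb7 (-3.06 and 2.08) lies far into the upper left.

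With the probes of a gene averaged, the widest gaps between arrays were found among the 11 Hox genes. The median of the family was -0.04 in fosBd/d and 0.06 in fosB-null, with means from -0.57 to 0.87 and from -0.54 to 0.72. None was positive on both fosBd/d arrays (beside 25.0% of all genes) and 2 were negative on both (beside 24.2%). The other 9 had opposite signs or a 0, as had 3061 of all 6025 genes. Replicates 1 and 2 of fosBd/d correlated at r = -0.80 over these 11 genes, which share their arrays. The 4 members with the widest gap between a mutant's arrays were all Hox genes in fosBd/d. These 4 have 1 probe each, whereas Sox11 and Sox18 are averages of 2 probes. A single Sox11 probe had -3.02 and 0.49 in fosBd/d, and a single Sox18 probe had -2.47 and 0.80. Those single-probe gaps were wider than the gaps of Hoxb4, Hoxd9 and Hoxa7. Hoxb7 had -3.06 and 2.08, Hoxb4, a factor of blood stem cell expansion, 0.80 and -1.94, Hoxd9 -1.54 and 1.05, and Hoxa7 2.09 and -0.36. Hoxa7 therefore had the highest mean of all members in fosBd/d (0.87 ± 1.73) and Hoxb4 the lowest of the Hox genes (-0.57 ± 1.94), and in both the SD exceeded the mean. On the fosB-null arrays Hoxb7 stood at 1.43 and exactly 0, Hoxb4 at 0.11 and exactly 0, Hoxd9 at -0.16 and 0.10, and Hoxa7 at -0.02 and 0.59.

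The remaining 7 Hox genes had narrower gaps in fosBd/d than these 4. Hoxc5 stood at -0.40 and -0.29 in fosBd/d (-0.35 ± 0.08) and at 0.62 and 0.23 in fosB-null (0.42 ± 0.27). Hoxb1, which specifies hindbrain segments, had -0.07 and -0.14 in fosBd/d and 0.29 and 0.57 in fosB-null (0.43 ± 0.20). Both genes thus lay on the same side on the 2 arrays of each mutant. Hoxb13, a factor of the tail and prostate, had the lowest fosB-null mean of all members, with -0.33 and -0.75 (-0.54 ± 0.30), while its fosBd/d arrays opposed each other at -0.45 and 0.58. Its 2 probes gave fosB-null means of -0.55 and -0.53, a gap of 0.03. Hoxa2, which patterns the pharyngeal arches, stood at 0.90 and -0.41 in fosBd/d and at -0.16 and -0.05 in fosB-null. Hoxb6 had 0.00 and -0.08, then -0.44 and 0.80 in fosB-null. The limb genes Hoxd10 and Hoxd12 were no farther than 0.34 from 0 on all 4 arrays, and Hoxd10 was listed at exactly 0 on 2 of them.

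**Figure D3:**
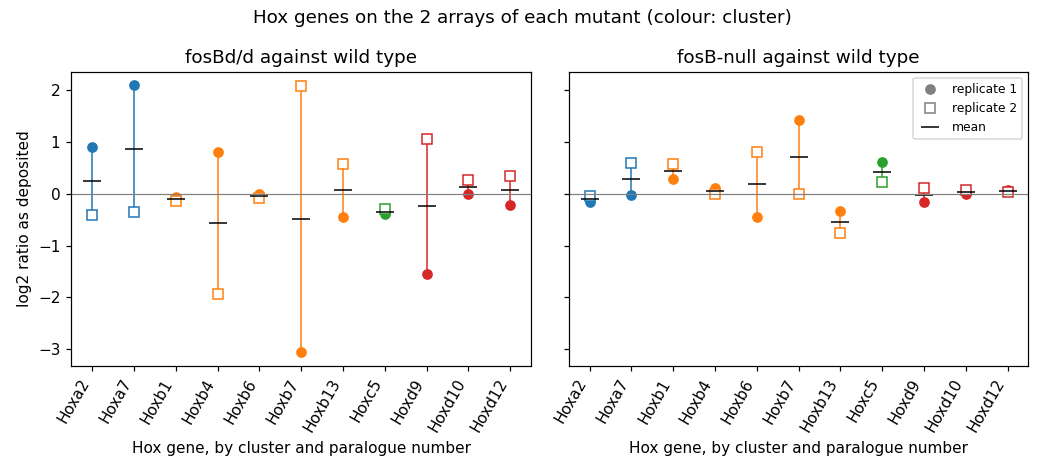
Log2 ratios of the 11 Hox genes by cluster (colour) and paralogue number, with filled circles for replicate 1, open squares for replicate 2 and black bars for the mean. The Hoxb cluster holds 5 of the genes, and Hoxb7 has the longest span, from -3.06 to 2.08 in fosBd/d. No Hox gene is positive on both fosBd/d arrays, beside 25.0% of all genes.

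Within the Hoxb and Hoxd clusters the fosBd/d means lay on both sides of 0, while both Hoxa genes had positive means, 0.25 for Hoxa2 and 0.87 for Hoxa7, from arrays of opposite sign. In fosBd/d the 5 Hoxb genes had means from -0.57 (Hoxb4) through -0.49 (Hoxb7), -0.11 (Hoxb1) and -0.04 (Hoxb6) to 0.07 (Hoxb13), and in fosB-null from -0.54 (Hoxb13) to 0.72 (Hoxb7). The 3 Hoxd genes had fosBd/d means of -0.25 (Hoxd9), 0.13 (Hoxd10) and 0.06 (Hoxd12). The fosBd/d arrays had opposite signs for Hoxb4, Hoxb7, Hoxb13, Hoxd9 and Hoxd12, so these means carry no stable sign.

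The 10 Fox genes had a median of -0.01 in fosBd/d and -0.02 in fosB-null. Foxn3, a repressor linked to cell cycle checkpoints, had the highest fosBd/d mean of the family with 0.33 and 0.35 (0.34 ± 0.01), and the lowest fosB-null mean with -0.48 and -0.15 (-0.31 ± 0.23). Foxc1, a factor of mesoderm, vessels and the eye, had the lowest fosBd/d mean, -0.69 ± 0.86, from -0.09 and -1.30, so that replicate 2 carries nearly all of it. On fosB-null it stood at -0.27 and 0.23. Its relative Foxc2 stood at 0.03 and 0.54 in fosBd/d and at 0.50 and -0.53 in fosB-null. Foxa3, a factor of gut and liver endoderm, had 0.06 and 0.41 in fosBd/d and 0.19 and -0.02 in fosB-null, the highest fosB-null mean among Fox genes at 0.08. Foxd1, which marks kidney stroma, agreed in fosBd/d at 0.19 and 0.29 but not in fosB-null, at 0.56 and -0.87. Foxf1 of the lateral mesoderm (0.04 and -0.47), Foxp2 of the brain (0.04 and -0.49) and Foxk2 (0.05 and -0.39) were near 0 on fosBd/d replicate 1 and negative on replicate 2. Their fosB-null means ran from -0.06 to 0.03. Foxk1 had -0.23 and 0.28 in fosBd/d, and 0.04 and -0.48 in fosB-null. The thymus factor Foxn1 stayed within 0.19 of 0 on every array. In this family 4 genes were positive and 1 was negative on both fosBd/d arrays, against 1 and 1 in fosB-null. The shares of all genes were 25.0% and 24.2% in fosBd/d, and 19.5% and 21.9% in fosB-null.

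Among the 6 Sox genes, medians were -0.33 in fosBd/d and -0.23 in fosB-null. Neither sign held on both arrays: without fosBd/d replicate 1 the median was 0.18 and without replicate 2 it was -0.76, and in fosB-null it was -0.45 without replicate 1 and 0.15 without replicate 2. With the first probe of each gene the fosBd/d median was -0.14. By its fosBd/d mean Sox6 stood near the bottom of the array, with 0.921% of the 6025 genes below it. Sox9, the regulator of cartilage and testis, was at the other end of the family with 0.41 and 0.71 in fosBd/d (0.56 ± 0.21, 1.47-fold likely higher), and its fosB-null arrays opposed each other at 0.30 and -1.002. Sox10, a neural crest factor related to Sox9, had -0.52 and -0.10 in fosBd/d and 0.69 and -0.68 in fosB-null. Sox12 stayed within 0.22 of 0 throughout. Sox11, a factor of neural progenitors, had -0.999 and 0.29 in fosBd/d but agreed in fosB-null at -0.38 and -0.34 (-0.36 ± 0.03). Sox18, an endothelial factor, had -1.53 and 0.43 in fosBd/d and 0.64 and -0.53 in fosB-null. In fosB-null 3 Sox genes (Sox6, Sox11 and Sox12) were negative on both arrays, beside 21.9% of all genes. None, 0 of the 6, was positive on both, beside 19.5%.

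The 9 Klf genes had medians of -0.01 in fosBd/d and -0.05 in fosB-null. On single arrays the family median was -0.18 and 0.16 in fosBd/d and 0.08 and -0.25 in fosB-null, so its sign also turned with the array. Klf6 was at the top in fosBd/d, above 95.8% of all genes. Its probes gave 0.96 and 0.60, and 0.64 and 0.95, so both lay on the positive side on both arrays. Their means were 0.78 ± 0.26 and 0.80 ± 0.21. The probes moved in opposite directions between the arrays, so the averaged value has a smaller SD than either probe. The same probes disagreed in fosB-null, where one had -0.45 and 0.66 and the other 0.30 and -0.34. Klf7, a close relative of Klf6 that acts in neurons, had 0.18 and 0.35 in fosBd/d (0.26 ± 0.12) and -0.18 and -0.76 in fosB-null (-0.47 ± 0.41), the lowest fosB-null mean of the family. Of the pluripotency factors, Klf2 had -0.27 and 0.12 in fosBd/d and 0.13 and -0.24 in fosB-null, and Klf5 had -0.01 and 0.50, then 0.24 and -0.01. Both genes had opposite signs on the arrays of each mutant. Once the turning read from the zero marks is undone, Klf2 was positive on all 4 arrays, with a dye term of 0.19 against means of -0.08 and -0.05.

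Klf15, a metabolic regulator, had the lowest fosBd/d mean of the family at -0.40 and -0.03 (-0.22 ± 0.27), and Klf16 the highest fosB-null mean at 0.07 and 0.40 (0.23 ± 0.24). Klf1, the erythroid member, had -0.33 and 0.42 in fosBd/d and -0.22 and -0.48 in fosB-null. Klf3, a repressor, had -0.36 and 0.11, then 0.50 and -0.29, and Klf10, induced by TGF-β, had -0.18 and 0.16, then 0.08 and -0.29. Of the 9, 2 were positive and 1 was negative on both fosBd/d arrays, beside 25.0% and 24.2% of all genes.

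The smaller families each held 1 to 3 genes. Gata3, a factor of T cells and trophoblast, had -0.91 and -0.14 in fosBd/d (-0.52 ± 0.54) and -0.11 and -0.14 in fosB-null, while the erythroid factor Gata1 had 0.65 and 0.02, then 0.58 and -0.15. Gatad1, outside the family, stood at -0.52 and -1.75 in fosBd/d (-1.14 ± 0.87) and at 0.29 and 0.05 in fosB-null. Both Nkx genes, which pattern the ventral neural tube, were negative by their fosBd/d mean. Nkx2-2 had -0.84 and -0.18 (-0.51 ± 0.47) and Nkx6-2 -0.76 and 0.16 (-0.30 ± 0.65). In fosB-null Nkx2-2 had 0.65 and -0.002, and Nkx6-2 0.54 and -0.47. Six4, a muscle regulator, opposed itself in fosBd/d at -0.91 and 0.19 but was positive on both fosB-null arrays at 0.82 and 0.18 (0.50 ± 0.45).

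Pou3f1, which marks the primed epiblast and Schwann cells, had 0.50 and 0.21 in fosBd/d (0.35 ± 0.21) and -0.66 and 0.08 in fosB-null. Pou6f1 was negative on all 4 arrays, at -0.82 and -0.09 in fosBd/d and at -0.25 and -0.08 in fosB-null. The sensory neuron factor Pou4f1 had -0.66 and 0.10, then 0.03 and -0.34. Of the Lhx genes in fosBd/d, Lhx8, a factor of oocytes and forebrain neurons, was listed at exactly 0 on both arrays, and Lhx1, a factor of the head organiser, stood at -0.04 and 0.52. In fosB-null Lhx8 had the highest mean of all members, 0.76 ± 1.35, from -0.20 and 1.71, so the SD exceeded it. Lhx1 was positive on both fosB-null arrays at 0.20 and 0.53 (0.36 ± 0.24).

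Separate probes of a gene gave a further view of the error, since 7 members had 2 probes. Their means lay on the same side for 5 of 7 genes in fosBd/d and for 5 of 7 in fosB-null. The smallest gap between probe means in fosBd/d was 0.02 for Klf6. On each array its probes lay farther apart, at 0.96 and 0.64 on replicate 1 and 0.60 and 0.95 on replicate 2. The widest gap was 1.82 for Sox11, whose probes had -3.02 and 0.49, and 1.02 and 0.09. One Sox18 probe had -2.47 and 0.80 where the other had -0.58 and 0.06. The averaged values of Sox11 and Sox18 on fosBd/d replicate 1 thus each hold 1 probe far from the other. In fosB-null the Sox11 probes differed by 0.09. Foxk1 in fosBd/d, and Klf6 and Sox18 in fosB-null, were the other genes whose probes lay on opposite sides.

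**Figure D4:**
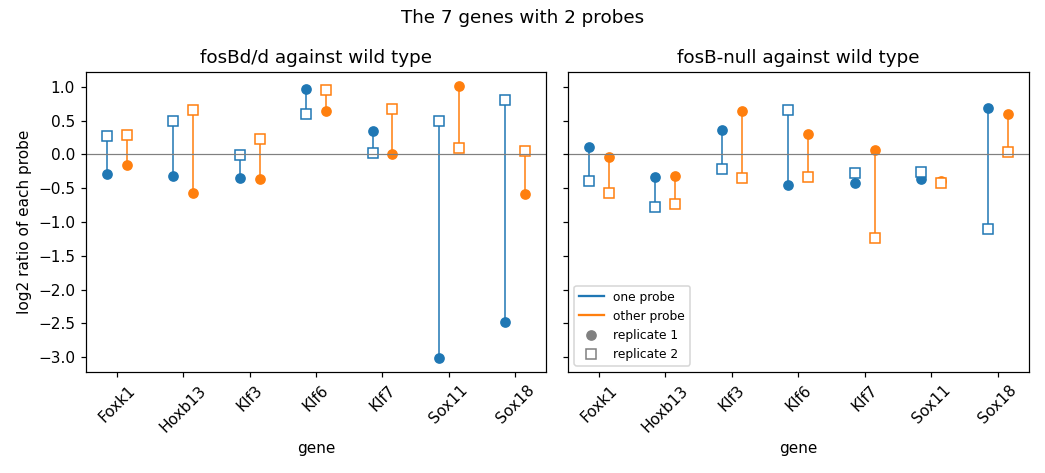
Log2 ratio of each probe for the 7 genes with 2 probes, with blue and orange for the probes, filled circles for replicate 1 and open squares for replicate 2. Both Klf6 probes lie above 0 on both fosBd/d arrays (0.60 to 0.96), while the Sox11 probes are at -3.02 and 1.02 on replicate 1.

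Between the mutants, 0 of 47 members passed limma in the difference fosBd/d minus fosB-null, beside 0.00% of all genes, and 9 had an unadjusted p under 0.05 (19.1%, beside 16.7%). With the fosB-null sign turned 0 passed, beside 0.00%, and 2 had an unadjusted p under 0.05, Klf6 and Sox6 (4.26%, beside 11.1%). Both mutants were read against wild type, so their values are not independent of each other. Klf6 differed by 0.74 as deposited and by 0.83 with the sign turned (limma SE 0.15; adjusted p = 0.277 and 0.428). Sox6 differed by -1.04 and -1.77 (SE 0.26; adjusted p = 0.288 and 0.428), and Tbx15 by 0.95 and 0.46 (SE 0.14; adjusted p = 0.275 and 0.450). For other members the reading of the sign decides the difference. Hoxc5 stood at -0.77 as deposited and 0.07 with the sign turned, Six4 at -0.86 and 0.14, Hoxb1 at -0.54 and 0.33, and Klf7 at 0.73 and -0.20.

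Promoter sequence was set beside Klf6 and Sox6, the members farthest above and below 0 when judged by the nearer of their 2 fosBd/d arrays. Hoxa7, whose mean was higher than that of Klf6 but whose arrays opposed each other, is not shown. Windows of 250 bases before a transcription start were taken from a RefSeq promoter table (build GRCm38.p6), which held 37 windows for 31 of the 47 genes. AP-1 was searched as TGANTCA, a pattern that is the same on both strands and allows any base at N. It was in 0 of the 37 windows and in 6.75% of all 32851 windows. The share for a stricter AP-1 pattern was not computed. The GC box GGGCGG, which Sp and Klf factors bind, was found on either strand in 21 of the 37 and in 32.7% of all windows. Windows are not independent, since Sox6 has several and those of Six4 overlap. By gene, 20 of the 31 held a GC box, and the share of all genes was not computed. Klf6 has 1 window and Sox6 has 6, of which 1 holds GC boxes. These are shown 5′ to 3′ on the strand of the gene with GC boxes in capitals, Klf6 on the plus strand of chr13:5861239-5861488 and Sox6 on the minus strand of chr7:116031048-116031297. A match is a description of the letters and not of binding.
Klf6: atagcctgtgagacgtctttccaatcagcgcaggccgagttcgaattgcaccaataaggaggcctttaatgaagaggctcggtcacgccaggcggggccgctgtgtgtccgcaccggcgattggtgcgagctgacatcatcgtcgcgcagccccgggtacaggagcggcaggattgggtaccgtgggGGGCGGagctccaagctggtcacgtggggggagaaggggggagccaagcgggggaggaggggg
Sox6: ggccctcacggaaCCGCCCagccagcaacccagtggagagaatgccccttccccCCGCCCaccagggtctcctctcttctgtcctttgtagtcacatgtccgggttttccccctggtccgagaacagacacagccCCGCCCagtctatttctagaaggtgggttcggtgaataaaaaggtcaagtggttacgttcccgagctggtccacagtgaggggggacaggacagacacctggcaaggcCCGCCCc
The Klf6 window holds 1 GC box on the gene's strand, and the Sox6 window holds 4, all on the opposite strand.

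Genes that act with these families were read from separate lists and are described without a test. Among 4 measured Hox cofactors of the Pbx, Meis and Pknox type, medians were 0.08 in fosBd/d and -0.02 in fosB-null, and 0 were past 2-fold on both arrays. Among 15 Polycomb and trithorax regulators, which hold Hox genes silent or active, medians were -0.15 and -0.11. On both fosBd/d arrays 6 were positive and 7 negative, beside 25.0% and 24.2% of all genes. Ring1, a Polycomb subunit, had -0.45 and -2.24 in fosBd/d. In limma 0 genes of either list passed, beside 0.00% of all genes. In fosBd/d 0 cofactors and 3 Polycomb or trithorax regulators had an unadjusted p under 0.05, beside 19.5% of all genes.

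The 23 other homeobox genes measured had medians of -0.11 in fosBd/d and 0.02 in fosB-null. On both fosBd/d arrays 4 were positive and 10 negative, beside 25.0% and 24.2% of all genes. The 1 gene of the list past 2-fold on both was Gbx2, at -1.90 and -1.36 (-1.63 ± 0.39), beside 0.266% of all genes on the negative side. Gbx2 is a homeobox gene of the midbrain-hindbrain boundary that is also known from the pluripotency network. Its fosB-null values were 0.81 and 0.17 as deposited. Rhox6, an X-linked homeobox gene of placenta and germ cells, stood at 1.21 and 0.81 in fosBd/d and at -0.80 and -0.68 in fosB-null as deposited. Pitx3 had -2.17 and -0.17 in fosBd/d. Of 27 other developmental factors, 2 were past 2-fold on both fosBd/d arrays: Snai1, which drives loss of epithelial adhesion (1.74 and 1.68), and the blood factor Runx1 (1.70 and 1.45). Over all genes 1.53% were at least 2-fold positive on both. As deposited, the fosB-null values were -0.46 and -0.36 for Snai1, and 0.35 and -0.84 for Runx1. With the fosB-null sign turned, Gbx2, Rhox6 and Snai1 would each lie on the same side in both mutants. Snai2 opposed itself at -3.28 and 0.11. The list of 27 had medians of -0.02 in fosBd/d and 0.05 in fosB-null. On both fosBd/d arrays 9 were positive and 6 negative, beside the same 25.0% and 24.2% of all genes. Of the 23 homeobox genes and the 27 other factors 0 passed limma, and 7 and 10 had an unadjusted p under 0.05 in fosBd/d, where 19.5% of all genes did.

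Markers of cell types were read from further lists. Several of the extraembryonic endoderm markers were listed with their values known, so their counts cannot serve as support for a cell type. Of 16 measured, from a list of 20, 13 were positive and 0 negative on both fosBd/d arrays, beside 25.0% and 24.2% of all genes. In fosB-null, whose sign is not settled, 4 were positive and 8 negative on both arrays, beside 19.5% and 21.9%. Medians were 1.63 in fosBd/d and -0.18 in fosB-null. In limma 0 of the 16 passed. An unadjusted p under 0.05 was found for 13 in fosBd/d (beside 19.5% of all genes) and for 7 in fosB-null (beside 6.82%). Fibroblast markers had medians of 0.07 and -0.12 (11 measured), trophoblast markers 0.16 and 0.18 (5 measured), and ES cell markers -0.24 and -0.37 (7 measured). Of the 11 fibroblast markers, 4 were positive and 4 negative on both fosBd/d arrays, beside 25.0% and 24.2% of all genes. On both fosB-null arrays 0 were positive and 5 negative, beside 19.5% and 21.9%. Of the 7 ES cell markers, 2 were positive and 3 negative on both fosBd/d arrays, beside 25.0% and 24.2% of all genes. In fosBd/d 5 of the 7 had an unadjusted p under 0.05, beside 19.5% of all genes. In fosB-null 6 of the 7 were negative on both arrays, beside 21.9% of all genes, and 3 had an unadjusted p under 0.05, beside 6.82%. Whether the values of Klf6, Tbx15, Sox9 or Sox6 follow the share of endoderm-like or ES cells was not tested, and a ratio of bulk RNA cannot tell fewer cells of a type from less RNA per cell.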

How the data were processed

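Each of 4 two-colour Agilent mouse cDNA arrays gave 1 value per probe, deposited by the authors and taken here as log10 ratios, as Agilent Feature Extraction (named in the submitters' processing notes) defines its log ratio. Its version, the background correction, dye normalization, filters and any turning of swapped arrays are steps not given in the sources used here. The 9480 values per array were multiplied by the log2 of 10. Probes were named from a platform annotation of 2007, and their symbols were brought up to date by gene identifier with RefSeq. There were 6566 probes with 1 gene, 392 with several and 2522 with none listed, and all 48 members matched. The 4 arrays were fitted gene by gene with limma 3.58.1 under R 4.3.3, estimating 1 ratio for each mutant and a dye effect signed by the marks on exact zeros; two-sided p-values were adjusted over 6025 genes by the Benjamini-Hochberg method, at 0.05. The script was tested on simulated data. The members and lists were chosen with earlier results of these data known. Named were each family's highest and lowest mean, members at least 0.5 (log2) on the same side on both arrays, the 5 with the widest gaps, those with a role in ES cells, and members whose probes disagree; others are given to account for every member. The promoter motifs and windows were chosen after the values were seen. Alternatives covered the dye term, separate fits, zeros, centring, scaling, log base, probe choice, membership and each array left out.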

Additional observations from a re-analysis of the deposited data

How the results depend on the processing

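Each array carried a mutant and wild type, so every ratio is already a paired value. The labels give no replicate numbers, and no further pairing between arrays was fitted. Replicates 1 and 2 as used here differ in the dye of the mutant, and the dye term takes up that dye effect and is not a block. In limma 0 members passed in fosBd/d, fosB-null or their difference under each alternative fitted (no dye term, each mutant alone, probes singly, exact zeros missing, fosB-null sign turned, updated symbols and each array left out, the last without a dye term). The number with an unadjusted p under 0.05 moved from 5 to 3 in fosBd/d and from 4 to 0 in fosB-null without the dye term and with each mutant alone, and from 9 to 4 in the difference without the dye term. It was 9 in fosBd/d without fosBd/d replicate 2, 3 there without either fosB-null array, 8 in fosB-null with exact zeros missing, 0 to 1 in fosB-null with any array left out, and 0 to 4 in the difference without fosBd/d replicate 1 or either fosB-null array. Values taken as log2 left 0 members 2-fold on both fosBd/d arrays. With 1 array left out a count rests on the other alone: 2-fold members were 5 to 5 in fosBd/d and 1 to 2 in fosB-null, positive members 17 to 28 and 18 to 25, negative members 18 to 26 and 21 to 27, and the median -0.0385 to 0.122 in fosBd/d and -0.0493 to 0.0270 in fosB-null. Without fosBd/d replicate 1 that median was positive, and without fosB-null replicate 1 it was negative; the counts differ because fewer arrays had to agree. Centring, scaling, the first probe of a gene and counting Gatad1 in left these counts within 1.5 times and these medians within the spread between arrays. Signal over background, which would show which ratios are faint, was not analysed here.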
